A study of Mus musculus with 2 samples.

Results

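AP-1 is a family of dimeric transcription factors, and 10 genes for its subunits were examined here in B cells of NOD mice: Jun, Junb, Jund, Fos, Fosb, Fosl2, Atf3, Batf, Maff and Mafk. All probe sets whose platform symbol is one of these names were taken, which gave 13 of the 45037 probe sets besides the array's controls, and 10 of 18193 named genes. Jun, Jund and Fosl2 have more than 1 probe set and the other 7 genes have 1. The arrays are 1 from AIRE transgenic (Tg) and 1 from non-transgenic (non-Tg) NOD mice, a strain prone to autoimmune diabetes. In the transgenic mice human AIRE is driven by an MHC class II promoter, which is active in antigen-presenting cells and so is not restricted to B cells. Each array was hybridised with RNA of B cells from 2 mice aged 8 weeks, sorted as B220-positive cells lacking Thy1 and CD11c, so each value is an average over 2 mice. With 1 array per group there is no replicate and no test, and every ratio below describes these 2 arrays, whose number limits the precision.

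AP-1 proteins carry a basic region that contacts DNA and a leucine zipper that pairs 2 subunits. Jun proteins can pair with each other or with Fos proteins, Fos proteins need a Jun partner, and the pairs bind short palindromic sites in DNA. In lymphocytes the family is known for its fast induction through MAP kinases after antigen receptor signalling and after cell stress, and Jund is known for a steadier level in resting cells than that of Jun, Junb or Fos.

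The sequences before the annotated starts of the Jun family and of Fos are shown because the contrast of Jund with these relatives is the main result. They are the 250 bases upstream of the start in RefSeq, build GRCm38.p6, each on its gene's strand, and capitals mark matches on either strand to the AP-1 palindrome TGANTCA, to its longer form TGANNTCA, to the core TGACGT of cyclic AMP response elements, or to the TATA box letters TATAAA.
Jund (chr8:70697489-70697738, plus strand): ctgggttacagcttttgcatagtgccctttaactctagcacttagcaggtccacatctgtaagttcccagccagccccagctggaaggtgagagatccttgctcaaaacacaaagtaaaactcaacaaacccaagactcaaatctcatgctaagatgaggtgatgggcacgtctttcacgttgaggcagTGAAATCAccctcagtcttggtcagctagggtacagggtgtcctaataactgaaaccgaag
Jun (chr4:95052223-95052472, minus strand): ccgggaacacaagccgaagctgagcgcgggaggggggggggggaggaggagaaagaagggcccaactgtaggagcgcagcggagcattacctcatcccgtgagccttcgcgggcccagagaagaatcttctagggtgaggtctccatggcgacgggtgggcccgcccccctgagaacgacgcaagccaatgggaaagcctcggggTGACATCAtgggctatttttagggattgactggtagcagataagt
Junb (chr8:84978749-84978998, minus strand): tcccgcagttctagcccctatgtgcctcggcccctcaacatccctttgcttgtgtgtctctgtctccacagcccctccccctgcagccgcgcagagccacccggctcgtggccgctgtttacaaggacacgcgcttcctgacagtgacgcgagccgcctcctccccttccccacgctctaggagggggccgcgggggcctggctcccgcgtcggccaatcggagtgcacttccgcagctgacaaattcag
Fos (chr12:85473640-85473889, plus strand): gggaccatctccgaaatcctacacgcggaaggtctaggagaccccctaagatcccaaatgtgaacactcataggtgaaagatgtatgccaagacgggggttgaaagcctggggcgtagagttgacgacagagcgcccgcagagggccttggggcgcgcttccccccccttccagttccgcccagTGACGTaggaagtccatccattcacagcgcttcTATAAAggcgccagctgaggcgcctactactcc
The Jund window holds TGAAATCA starting 61 bases before the start, the Jun window holds TGACATCA 45 bases before it, and the Junb window holds no match to any of these 4 patterns. The Fos window holds TGACGT 66 bases and TATAAA 33 bases before its start. TGANNTCA was present in 11.9% of all 32851 windows of this length, TGACGT in 6.47% and TATAAA in 12.4%. All 10 genes have a window, 12 in all because Maff has 3, and none of the 12 holds TGANTCA, which 6.75% of all windows hold. TGACGT also lies in the windows of Atf3 and Batf, and in 1 of Maff it is part of TGACGTCA, so that it overlaps TGANNTCA there. GC content was 47.6% in the Jund window, 61.2% for Jun, 66.4% for Junb and 58.4% for Fos, against a median of 52.4% over all windows. RefSeq lists more than 1 Jund transcript and the table gives a single start, so other Jund starts were not examined, and a match to these letters is a description of the sequence only.

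The comparison asked how the subunits differed between the AIRE transgenic and the non-transgenic array. Of the 10 genes, Jund alone was at least 2-fold apart, with its lower value in Tg B cells. With the array medians aligned, the other 9 all lay within 1.5-fold, between log2 ratios of -0.43 for Jun and 0.39 for Atf3. As deposited Jun, at -0.59, lay just past 1.5-fold. Intensities below were aligned to a common array median, ratios are log2 transgenic over non-transgenic, and a gene counted as above the filter when its brightest probe set reached 98.8, the pooled median, on at least 1 array. Above the filter were 9 of the 10 genes, all except Maff, and both values of each reached it. In all 10778 genes above the filter, 3.19% were at least 2-fold lower and 4.43% at least 2-fold higher, while of the 9 subunits 1 was lower and 0 were higher by that much. The division of all calls was 58.1% higher with the alignment, 36.2% higher as deposited and 48.0% after quantile normalization. Probe sets differ in brightness for equal amounts of RNA, so intensities of different genes were not ranked, and fewer expressing cells cannot be told apart from less RNA per cell.

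**Figure D1:**
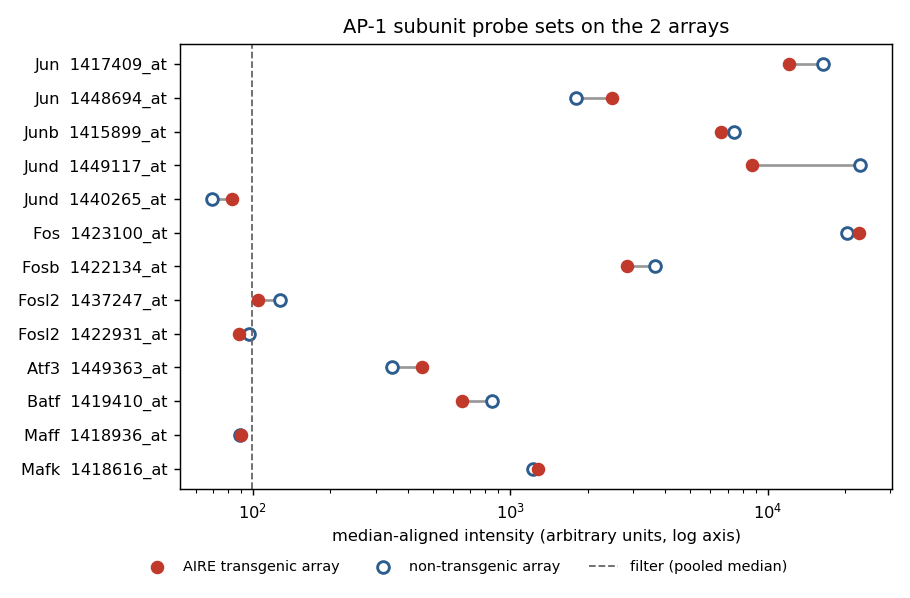
Median-aligned intensity of each of the 13 AP-1 probe sets on a log axis, with filled points for the transgenic and open points for the non-transgenic array, joined by a line. The widest gap is that of Jund probe set 1449117_at, at 8712 in Tg B cells, against 22881 in non-Tg B cells, and the dashed line is the filter at 98.8.

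Jund encodes a Jun protein known to restrain proliferation in mouse fibroblasts. Its probe set 1449117_at read 8712 in Tg B cells and 22881 in non-Tg B cells, and as deposited 8209.7 in Tg and 24154.8 in non-Tg. That is 2.63-fold lower in Tg B cells, a log2 ratio of -1.39. Only 1.5% of all genes above the filter had a lower ratio. Of 369 genes with a mean intensity within 2-fold of that of Jund, itself included, 0.813% were at least 2-fold lower with the alignment. Those 3 genes were Jund, Fcer2a, the low-affinity IgE receptor of mature B cells, at 4736 in Tg against 13654 in non-Tg, and the immunoglobulin variable gene Ighv14-2 at 16219 in Tg against 32552 in non-Tg, which shares sequence with its relatives. The last pair were named after their values were seen. The median ratio of the 369 genes was 0.15. As deposited these ratios are lower by 0.16, so that more of the 369 genes pass 2-fold lower. Among them are Btla (-0.94 with the alignment) and Ctse (-0.88), also named after their values were seen.

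The other Jund probe set, 1440265_at, did not show the difference. It read 83.2 in Tg B cells and 69.5 in non-Tg B cells, a log2 ratio of 0.26, and both values lay under the filter. The Jund difference therefore rests on a single probe set. The mean of both probe sets gives Jund a log2 ratio of -0.57, which is no longer past 2-fold.

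Jun, the founding member of the family and a strong activator, was read by a pair of probe sets that disagreed. Probe set 1417409_at read 12162 in Tg B cells and 16380 in non-Tg B cells (-0.43). Probe set 1448694_at read 2497 in Tg B cells and 1809 in non-Tg B cells (0.46). The 2 ratios are 0.89 apart, and their mean is 0.02. Opposite signs were common on these arrays: in 4608 genes with 2 probe sets fully above the filter, the brightest 2 of each gene had opposite signs in 33.7%. Their absolute difference had a median of 0.33 and was at least as large as that of Jun in 9.51%. No direction is therefore given for Jun.

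Junb, which can act against Jun at shared targets, had 6607 in Tg B cells and 7438 in non-Tg B cells (-0.17). Relative to the median ratio of all genes above the filter, 0.19, it stood at -0.36. In the Jun family the ratios thus ran from -1.39 for Jund to -0.17 for Junb by the brightest probe sets.

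The Fos family, whose proteins bind DNA as partners of Jun proteins, was closer between the arrays. Fos, the best known immediate early gene, read 22745 in Tg B cells and 20376 in non-Tg B cells (0.16). Its deposited values were nearly equal, 21433.1 in Tg against 21510.3 in non-Tg, and without the alignment its ratio was -0.01. Fosb, a second inducible member, read 2851 in Tg B cells and 3652 in non-Tg B cells (-0.36). Its sign was negative under all 4 scalings tried, the alignment, none, quantile and loess, from -0.57 to -0.36. Fosl2, a more slowly induced Fos protein, read 105.1 in Tg against 127.2 in non-Tg on its brighter probe set (-0.28). Its other probe set, at 88.0 in Tg B cells and 97.0 in non-Tg B cells (-0.14), had the same sign but lay under the filter.

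**Figure D2:**
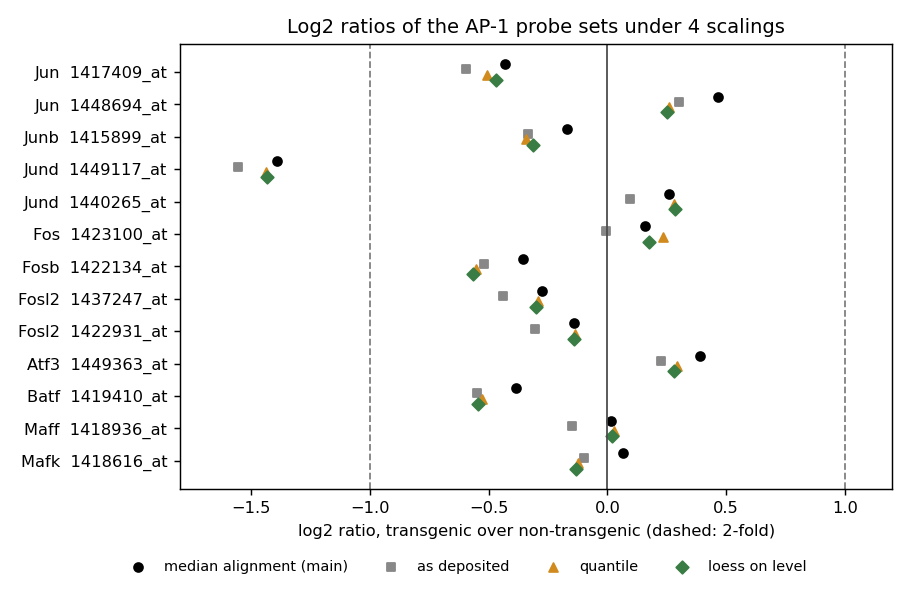
Log2 ratio, transgenic over non-transgenic, of each of the 13 probe sets under the median alignment (circles), as deposited (squares), after quantile normalization (triangles) and after loess (diamonds), with dashed lines at 2-fold. Jund probe set 1449117_at lies between -1.56 and -1.39, and no other probe set passes either dashed line under these 4 scalings.

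Atf3 and Batf are bZIP proteins that pair with Jun proteins. Atf3, which is induced by many forms of cell stress and often represses its targets, read 455 in Tg B cells and 347 in non-Tg B cells (0.39). It had the highest ratio of the 10 genes and exceeded the array-wide median ratio, as Fos also did after quantile normalization and loess. Its ratio was positive under all 4 scalings, from 0.23 to 0.39. Batf, which works with Jun proteins and IRF4 or IRF8 and is needed in mouse B cells for class switching, read 652 in Tg B cells and 852 in non-Tg B cells (-0.39). Its ratio was negative under all 4 scalings, from -0.55 to -0.39, and 13.9% of genes above the filter lay lower.

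The small Maf proteins lack an activation domain and serve as partners for Nrf2 and Bach factors as well as for AP-1 proteins. Mafk read 1278 in Tg B cells and 1222 in non-Tg B cells (0.06), and its sign turned to -0.10 as deposited, -0.12 after quantile normalization and -0.13 after loess. Maff was under the filter on both arrays, at 90.3 in Tg B cells and 89.3 in non-Tg B cells (0.02), and turned to -0.15 as deposited. Neither small Maf gene has a direction that holds over the scalings.

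**Figure D3:**
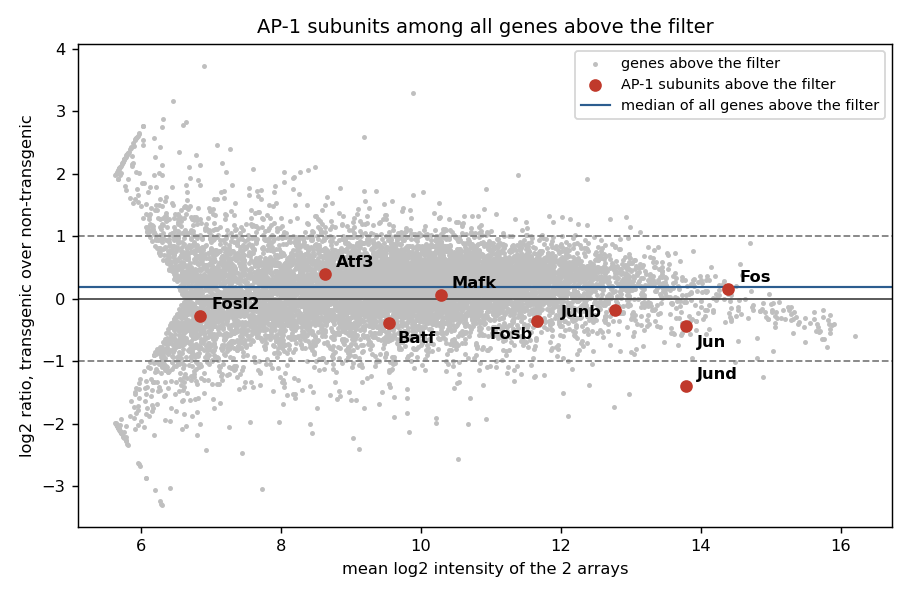
Log2 ratio, transgenic over non-transgenic, against mean log2 intensity for the 10778 genes above the filter (grey) with the 9 AP-1 subunits among them in red, each by its brightest probe set. Jund lies at -1.39, under the dashed 2-fold line, and 8 of the 9 subunits lie below the blue line at 0.19, the median of all these genes (7 of 9 after quantile normalization or loess).

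As a group, 6 of the 9 subunits above the filter had a ratio below 0, where 35.1% of all genes above the filter did, and 8 of 9 lay below the array-wide median. As deposited these were 8 of 9 below 0 (all genes, 48.8%) and 8 of 9 below the median, and after quantile normalization and after loess they were 7 of 9 and 7 of 9 (all genes below 0, 45.9% and 46.5%). Their median ratio was -0.28, against 0.19 over all genes above the filter. The alignment moves the median of all these genes, which was 0.01 as deposited, 0.05 after quantile normalization and 0.04 after loess. The median of the subunits above the filter lay between -0.44 and -0.17 over all alternatives. Relative to the array-wide median of the same scaling, Jund was at -1.58 with the alignment, -1.57 as deposited, -1.48 after quantile normalization and -1.47 after loess.

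Set against its relatives by the brightest probe sets, Jund was lower by more than 2-fold in ratio against 8 of 9, and against 6 of 9 after quantile normalization or loess. By the mean over probe sets Jund was at -0.57, and no relative was then 2-fold away, Atf3 at 0.39 being the farthest. The difference in log2 ratio, Jund minus relative, was -1.78 for Atf3, -1.55 for Fos, -1.46 for Mafk, -1.41 for Maff and -1.22 for Junb. It was -1.12 for Fosl2, -1.04 for Fosb, -1.01 for Batf and -0.96 for Jun. Against the second Jun probe set it was -1.86. The smallest of these differences, -0.96, is close in size to the 0.89 by which the 2 Jun probe sets differ from each other. Jund minus the median of the 9 others was -1.22 and ranged from -1.22 to -0.58 over the alternatives. The ratios of the 9 others span 0.82, while Jund minus the nearest of them, Jun, was -0.96. Under each of the 4 scalings Jund was the lowest of the 10, and Jund minus the next gene was between -0.96 and -0.87.

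The 5 genes above the filter whose intensities on both arrays lay nearest to those of Jund were Btla, Pfn1, Ets1, Spib and Zfp36, by Euclidean distance over the 2 log2 values. Btla, an inhibitory receptor of lymphocytes, was closest, at 10855 in Tg against 20841 in non-Tg (-0.94) and a distance of 0.34. Pfn1, the actin-binding profilin, was at 10139 in Tg against 16908 in non-Tg (-0.74). Ets1 (-0.57), Spib (-0.57), both ETS transcription factors, and Zfp36 (-0.55), which destabilises AU-rich messenger RNAs, completed the 5. Likeness over 2 arrays is a weak measure, and with the alignment none of these 5 was 2-fold apart. As deposited each of these ratios is lower by 0.16, which takes Btla past 2-fold lower.

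Other genes of the AP-1 system, immediate early genes outside it and heat shock genes were taken from 8 lists of 118 entries. Above the filter were 99 entries. By size, 8 of these were higher in Tg B cells by 2-fold or more, and 1 was lower by as much. Of all genes above the filter, 4.43% were that much higher and 3.19% that much lower. Heat shock genes made up 4 of the 8. Under the other scalings more entries were lower, with Mapk11 and Mt2 as deposited, and Mapk11 and Mef2c after quantile normalization and loess. With the alignment the lower gene was Batf3, a relative of Batf needed for a class of dendritic cells. Batf3 was at 69.8 in Tg B cells, against 179 in non-Tg B cells (-1.36), and lay above the filter in non-Tg only. It belongs to the other bZIP relatives, where 2 of 15 genes were 2-fold higher and the median was 0.34. Jdp2, a repressor that pairs with Jun proteins, was at 230 in Tg against 94.9 in non-Tg (1.28), above the filter in Tg only, and the second Jdp2 probe set (0.76) lay under the filter on both arrays. Bach1, a haem-binding repressor and a partner of small Maf proteins, was at 1871 in Tg against 862 in non-Tg (1.12), but only 0.19 on the second Bach1 probe set, and it was under 2-fold in the 3 other scalings.

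The upstream and partner lists held no gene 2-fold apart by its brightest probe set with the alignment. Nearest to it was the p38 kinase gene Mapk11, named after its values were seen, at 554 in Tg against 1102 in non-Tg (-0.99), which passed 2-fold lower under the 3 other scalings. Its second probe set was past 2-fold lower with the alignment, at 142 in Tg against 316 in non-Tg (-1.15). The other gene to pass it was Mef2c, a factor of B cell activation at 3672 in Tg against 6487 in non-Tg (-0.82), after quantile normalization and loess. The MAP kinases had a median of 0.13 over 12 genes, and by highest intensity Map2k1, an ERK activator, stood at 4755 in Tg against 4687 in non-Tg (0.02) and Rps6ka3, the kinase RSK2, at 3062 in Tg against 2046 in non-Tg (0.58). Factors that act at early gene promoters had a median of 0.23 over 10 genes, with Stat3 at 5767 in Tg against 4661 in non-Tg (0.31) and Mef2c as the brightest. The other Stat3 probe sets disagreed, at 0.68, -0.19 and -0.27. Genes of AP-1 restraint and turnover had a median of 0.05 over 15 genes, among them Men1, whose product menin binds JunD, at 806 in Tg against 824 in non-Tg (-0.03). The other Men1 probe sets, above the filter on both arrays, gave -0.38 and 0.12. Men1 was named after its value was seen. The brightest of that list were Zfp36 at 11229 in Tg against 16453 in non-Tg (-0.55) and Zfp36l1, another RNA-destabilising protein, at 12259 in Tg against 11993 in non-Tg (0.03), while the second Zfp36l1 probe set read 2693 in Tg against 6721 in non-Tg (-1.32). AP-1 partners had a median of 0.10 over 12 genes, with Ets1 at 11056 in Tg against 16460 in non-Tg and Irf8, a partner of Batf in B cells, at 13537 in Tg against 14093 in non-Tg (-0.06).

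Known AP-1 targets had a median of 0.01 over 13 genes above the filter, while 7 more lay under it. The only one 2-fold apart was the cytokine gene Tnf, at 243 in Tg B cells, against 112 in non-Tg B cells (1.12), and as deposited it did not pass 2-fold while the metallothionein gene Mt2, at 87.4 in Tg against 166 in non-Tg (-0.92), passed it on the lower side. Immediate early genes outside AP-1 had 15 genes above the filter and a median of 0.06. The nuclear receptor Nr4a3 was the only one of these 2-fold higher, at 179 in Tg against 74.2 in non-Tg (1.27), above the filter in Tg only. Its other 2 probe sets lay under the filter on both arrays and give no check. Egr1, a zinc finger factor induced together with Fos, was named after its value was seen and was at 6049 in Tg against 5175 in non-Tg (0.23). The medians of the MAP kinases, of restraint and turnover, of the partners, of the targets and of these early genes, 0.01 to 0.13 with the alignment, were all below 0 under the 3 other scalings, from -0.28 to -0.02, so that they have no settled direction.

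**Figure D4:**
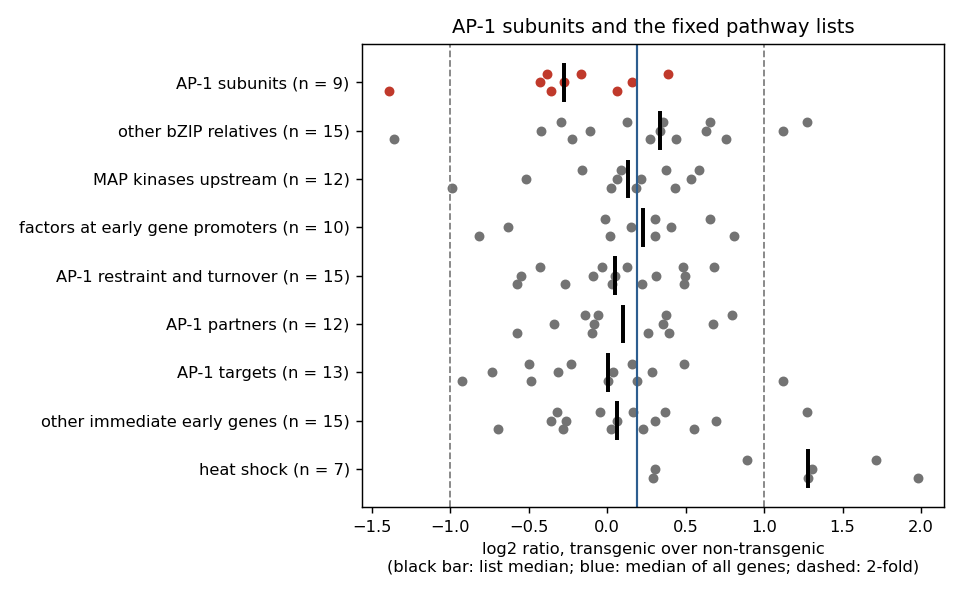
Log2 ratio, transgenic over non-transgenic, of each gene above the filter in the AP-1 subunits (red) and the 8 other lists (grey), with black bars at list medians, a blue line at the median of all genes and dashed lines at 2-fold. The subunits have a median of -0.28, and the heat shock genes lie apart with a median of 1.28.

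Heat shock genes, which like Fos and Atf3 respond to cell stress, had the highest median of these lists, at 1.28, and 4 of 7 were past 2-fold higher. These were Hspa1b at 5334 in Tg against 1351 in non-Tg (1.98), Hspa1a at 1897 in Tg against 580 in non-Tg (1.71), Dnaja1 at 12333 in Tg against 4981 in non-Tg (1.31) and Hsph1 at 4061 in Tg against 1671 in non-Tg (1.28). Hspa1a and Hspa1b are near-identical copies that the probes may not tell apart. The median stayed above 1 under all 4 scalings, at 1.07 to 1.28. The part of this heat shock list in the AP-1 values was not tested.

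Markers of the sorted cells and of other cells also differed between the arrays, and their part in the Jund value was not tested. All 5 B cell markers measured were above the filter on both arrays and had ratios below 0 under all 4 scalings, with a summed intensity of 91565 in Tg B cells, against 151553 in non-Tg B cells. Cd79a, a chain of the antigen receptor, had the lowest ratio of them and was named for it, at 19609 in Tg against 46825 in non-Tg (-1.26), and Ms4a1, the CD20 gene, was at 29789 in Tg against 38866 in non-Tg (-0.38). The 4 natural killer cell markers summed to 4067 in Tg against 2178 in non-Tg, with Gzma, a cytotoxic protease, at 2771 in Tg against 1369 in non-Tg (1.02, under 2-fold in the 3 other scalings) as the brightest. Klre1, a receptor of these cells named after its values were seen, was at 470 in Tg against 192 in non-Tg (1.29) and past 2-fold under all 4 scalings. Of the rest of this list, Ncr1 was at 567 in Tg against 347 in non-Tg (0.71). Prf1 did not share the direction, at 259 in Tg against 269 in non-Tg (-0.06) and with -0.50 on its second probe set. Ncr1 and Prf1 were named after their values were seen, and Gzma makes up most of the sum. The 4 neutrophil markers summed to 8893 in Tg against 8653 in non-Tg with the calprotectin gene S100a8 at 3913 in Tg against 4393 in non-Tg as the brightest. Named after their values were seen, the neutrophil granule genes Ngp at 1011 in Tg against 371 in non-Tg (1.45, past 2-fold under all 4 scalings) and Camp at 365 in Tg against 185 in non-Tg (0.98) went the other way. Summed intensities were, for the 5 of monocytes and macrophages, 11592 in Tg against 10413 in non-Tg, with Lyz2, the brightest, at 5939 in Tg against 6172 in non-Tg and the growth factor receptor gene Csf1r at 4090 in Tg against 2584 in non-Tg (0.66). For the 5 of plasma cells they were 30502 in Tg against 34471 in non-Tg, with Jchain, the brightest, at 18279 in Tg against 23590 in non-Tg (-0.37) and the transcription factor gene Xbp1 at 8119 in Tg against 5930 in non-Tg (0.45). Csf1r and Xbp1 were named after their values were seen. The 5 T cell markers were dim, with a sum of 1056 in Tg against 1234 in non-Tg, and Cd3d was at 349 in Tg against 315 in non-Tg. Thy1, which the sort also selected against, was at 101 in Tg against 208 in non-Tg (-1.04) and was named after its values were seen. Dendritic cell markers summed to 2082 in Tg against 1899 in non-Tg, and Itgax, the gene for the CD11c that the sort selected against, was above the filter on both arrays, at 804 in Tg against 670 in non-Tg, and was named for its place in the sort. Siglech, of plasmacytoid dendritic cells, was the brightest of these at 830 in Tg against 882 in non-Tg. The 3 erythroid markers, of which Klf1 was brightest at 29.8 in Tg against 34.5 in non-Tg, all lay under the filter on both arrays.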

How the data were processed

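Each group is 1 Affymetrix array of B cell RNA. The authors deposited 1 linear intensity for each probe set on each array. Their software, background correction and scaling are not given in the sources used here. After 2% of values were trimmed from each end, the deposited intensities averaged 500.0 on both arrays alike, so the values called as deposited may already have been scaled. Per the labels, RNA was purified with a High Pure kit and fragmented cDNA was labelled with biotin. Deposited intensities had medians of 93.1 in transgenic B cells and 104.3 in non-transgenic B cells, and no detection calls were used.

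The 64 control probe sets were set aside. Of the rest, 34945 carry 1 platform symbol, 932 several and 9160 none, and only the first were named. RefSeq genes of GRCm38.p6, matched by Entrez identifier, changed 0 symbols. Because the array medians differed by -0.16 in log2, each array was scaled again, to the pooled median (factors 1.06 and 0.947), which raises the ratio of every probe set above the floor by 0.16 in log2, intensities below 25.1, the 25th percentile of both arrays, were raised to it, and log2 was taken. No AP-1 probe set was at that floor. The probe set of highest mean level stood for its gene. A difference was called at 2-fold by size alone, with no p-value.

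The members, lists and rules were chosen with earlier results of these data known. Genes were named by rule: every member, up to 4 genes past 2-fold of each list or otherwise the 2 brightest, the 5 nearest to Jund and the brightest marker of each cell type, and exceptions are stated. Entries without a probe set of 1 symbol, 8 of the 118, were not analysed here. Alternatives covered scaling, floor, filter, fold and probe set rules. The steps were tested on simulated arrays with a constant offset between arrays and noise of equal size at all levels. Changes were put into bright genes and shared by all their probe sets, so that test does not bear on dim or disagreeing probe sets. Promoter windows are from RefSeq. Tools were matplotlib 3.10.9, statsmodels 0.14.6, pandas 2.3.3, numpy 2.4.6 and Python 3.11.15.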

Additional observations from a re-analysis of the deposited data

How the results depend on the processing

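The Jund log2 ratio kept its sign under all 9 alternatives tried and stayed past 2-fold under 8, the exception being the mean over probe sets. In 5 of these its value was identical, because the floor, the filters and the other probe set rules do not touch its bright probe set. With the mean over probe sets the Jund ratio was -0.57, and Jund minus the median of its relatives was -0.58. In that setting 0 of 9 subunits were 2-fold lower, because the dim second probe set enters the mean. No subunit was 2-fold higher in any setting. At a 1.5-fold threshold with the alignment none was higher and 1, Jund, was lower. As deposited Jun, at -0.59 on its brightest probe set, also passed 1.5-fold lower. The median of the subunits stayed below 0 in all 9. Counts over all genes moved more: 292 genes were 2-fold higher (514 lower) as deposited, 941 higher and 918 lower with no filter, 247 and 139 with both values above the filter, 290 higher (255 lower) with the mean over probe sets, and 1879 higher and 907 lower at 1.5-fold. No paired analysis was possible because each group has 1 array. Signal over background limits Maff, Fosl2 and the second Jund probe set, which lie near or under the filter.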
